A study of Homo sapiens with 2 samples.

Results

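The genes described here make, take up and export sterols and fatty acids. They were chosen by name: a probe counted if its gene symbol on the array, updated to the current name, was one of 41 symbols fixed for sterol synthesis, fatty acid synthesis, the regulation of both, and lipid uptake, efflux or trafficking. The array carried a named probe for 37 of the 41, among 12445 named genes in all, and 32 passed the level filter, among 6684. ACAT2, HSD17B7, SCAP and NPC2 matched no named probe and were not analysed here. MSMO1 was listed under its older symbol SC4MOL, SC5D under SC5DL and ACSS2 under ACAS2.

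Total RNA came from KYSE-170, an established human oesophageal squamous carcinoma cell line, after transfection with 1 of 2 oligoribonucleotides. The cells of 1 sample received miR-210, a hypoxia-inducible microRNA. The cells of the other received an oligoribonucleotide that the labels call ncRNA, whose sequence they do not give. Both samples were grown in the same medium with serum, transfected with the same reagent and hybridised, as Cy5-labelled cRNA made from 500 ng of RNA, to a 1-colour oligonucleotide array. Each group had 1 array, so a difference between miR-210 and ncRNA cannot be told apart from a difference between cultures or arrays, and no p-value is given.

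Cholesterol is built from acetyl-CoA through mevalonate, farnesyl diphosphate, squalene and lanosterol. The enzymes of this route, and those that make and desaturate fatty acids, are largely under the control of the SREBP transcription factors. SREBPs are held in the endoplasmic reticulum by INSIG proteins when sterols are plentiful, and are released to the nucleus when sterols run low. Cells that have excess sterol export it through ABC transporters or store it as esters.

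The mature microRNA is shown because it is the transfected agent. The labels say only miR-210, and the arm printed is the 3p arm of RefSeq (GRCh38.p14, chr11:568112-568133, minus strand), with its seed, bases 2 to 8, in capitals.
hsa-miR-210-3p: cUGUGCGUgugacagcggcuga

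The regulatory windows of 4 of these genes are shown because they hold or lack motifs tied to sterol control. Each runs from 250 bases before to 50 bases after the start of the gene in RefSeq, 5′ to 3′ on the gene's strand (GRCh38.p14). MSMO1 (chr4:165327419-165327718, plus strand) and NSDHL (chrX:152830813-152831112, plus strand) are sterol synthesis genes at least 2-fold higher on the miR-210 array. SREBF2 (chr22:41832855-41833154, plus strand) encodes the SREBP that chiefly drives sterol synthesis. ELOVL6 (chr4:110198566-110198865, minus strand) is a fatty acid gene at least 2-fold lower. Capitals mark CCAAT, the sequence bound by NF-Y, a factor known to act with SREBPs, on either strand (ATTGG on the printed strand), and in SREBF2 also TCACCCCAC.
MSMO1: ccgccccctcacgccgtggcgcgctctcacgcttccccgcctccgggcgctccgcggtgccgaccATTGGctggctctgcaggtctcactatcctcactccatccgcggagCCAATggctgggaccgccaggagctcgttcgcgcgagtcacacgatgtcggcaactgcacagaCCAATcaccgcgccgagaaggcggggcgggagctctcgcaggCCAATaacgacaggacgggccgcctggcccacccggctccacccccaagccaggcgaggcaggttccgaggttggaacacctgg
NSDHL: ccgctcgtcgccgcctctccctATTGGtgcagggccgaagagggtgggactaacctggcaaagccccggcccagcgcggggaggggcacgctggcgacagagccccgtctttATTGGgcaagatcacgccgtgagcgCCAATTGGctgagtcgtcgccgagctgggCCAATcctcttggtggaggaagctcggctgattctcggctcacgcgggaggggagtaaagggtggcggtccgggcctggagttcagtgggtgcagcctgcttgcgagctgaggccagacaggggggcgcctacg
SREBF2: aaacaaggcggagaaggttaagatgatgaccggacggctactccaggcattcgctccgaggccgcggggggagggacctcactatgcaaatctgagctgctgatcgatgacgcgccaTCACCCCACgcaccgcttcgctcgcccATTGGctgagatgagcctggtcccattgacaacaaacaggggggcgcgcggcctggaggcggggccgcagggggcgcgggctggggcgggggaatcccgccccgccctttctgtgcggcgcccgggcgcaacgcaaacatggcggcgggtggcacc
ELOVL6: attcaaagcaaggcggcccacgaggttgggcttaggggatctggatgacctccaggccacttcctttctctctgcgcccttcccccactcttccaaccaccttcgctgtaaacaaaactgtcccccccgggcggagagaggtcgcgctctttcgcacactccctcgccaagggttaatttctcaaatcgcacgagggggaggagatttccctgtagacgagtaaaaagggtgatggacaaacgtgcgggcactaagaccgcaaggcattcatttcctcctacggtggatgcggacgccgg

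MSMO1 held 4 CCAAT matches, NSDHL 5 and SREBF2 1, and ELOVL6 held none. CCAAT and direction did not match in every gene. MVD, 1.83-fold lower on the miR-210 array, held 3 matches, while VLDLR, 2.66-fold higher, and CYP51A1, 1.82-fold higher, held none. Among kept genes with a negative log2 ratio of miR-210 over ncRNA, HMGCS1, MVD, TM7SF2 and INSIG1 had a window with CCAAT. PMVK, SREBF1, INSIG2, ELOVL6 and FADS1 held it in no window. Among those with a positive ratio, AACS, CYP51A1, VLDLR and NPC1 lacked it, and the others with a window held it. A link between CCAAT and direction was not tested. In NSDHL the matches at positions -113 and -110 from the start overlap on opposite strands. RefSeq windows were at hand for 29 of the 32 genes kept, 39 windows in all, since a gene can have several starts. CCAAT was present in 13 of 19 windows (68.4%) of the sterol synthesis genes and 6 of 10 windows (60%) of the fatty acid genes. It was in 3 of 5 windows (60%) of the uptake, efflux and trafficking genes. The SREBPs and their regulators held it in 2 of 5 windows (40%), and all genes kept in 35.6% of 8007 windows. Over all 35116 windows of the table, 34.6% held it. The GC box GGGCGG, searched on both strands, was in 17 of 19 sterol windows (89.5%) and in 35 of the 39 windows of these genes (89.7%). It was in 65.1% of windows of all genes kept and 45% of all windows in the table. TCACNCCAC, a form of the SREBP site, was in 1.13% of all windows, on either strand, and in 1 window of these genes. That window was SREBF2, where TCACCCCAC began at position -133, with CCAAT on the opposite strand at -106. Other forms of the SREBP site were not searched, so the absence of these letters elsewhere says nothing about SREBP.

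Values are array intensities, linear scanner readings that grow with the amount of a transcript but cannot be compared between probes. The median over all 24267 probes was 36 on the miR-210 array and 39 on the ncRNA array. Intensities below are as deposited, and each log2 ratio takes miR-210 over ncRNA after quantile normalization, so that its fold differs somewhat from the ratio of the printed intensities. The median log2 ratio of all 6684 genes kept was 0.007 after normalization and -0.12 on the deposited scale. The only error that the data give is between probes of a gene: over 251 genes with at least 2 kept probes, a single probe had an SD of 0.44 around its gene on the log2 scale. Probes of a gene were read on the same arrays, so this SD does not measure differences between cultures or arrays. Over all genes kept the SD of the log2 ratio was 0.535, with 0.575 for genes under an intensity of 100 and 0.47 for genes at 500 and above.

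Epithelial markers were present: 7 of 8 squamous marker genes on the array were kept, against 6684 of 12445 named genes. The intensities of those kept ran from 69 on the miR-210 array and 64 on the ncRNA array, for CDH1, up to 7094 and 12693, for SFN. Also kept were 1 of 4 leukocyte, 2 of 5 fibroblast and 2 of 4 endothelial marker genes on the array. The brightest of these was the fibroblast marker DCN, at 181 on the miR-210 array and 183 on the ncRNA array. TP63, the basal squamous transcription factor, was under the level filter, at 22 on the miR-210 array and 57 on the ncRNA array. Of the 7 markers kept, 4 were above 0 and 3 below, with a median log2 ratio of 0.19. KRT5, a basal keratin, was the highest, at 496 with miR-210 and 290 with ncRNA (0.90). PERP was the lowest, at 301 and 565 (-0.80), and SFN (-0.57) and KRT13 (-0.54) were also lower. The part of these differences in the results below was not tested. Of 7 liver and fat cell markers, which would bring lipid genes of their own, only PLIN1 was kept, at 104 and 98. In bulk RNA, fewer cells that express a gene and less of its RNA per cell cannot be told apart.

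Across all 32 genes, 22 had a log2 ratio above 0 (68.75%, against 50.2% of all genes kept) and 10 below, with a median of 0.29. At least 2-fold higher on the miR-210 array were 5 of 32 (15.6%), against 3.02% of all genes kept, and at least 2-fold lower were 2 of 32 (6.25%), against 3.19%. In either direction 6.21% of all genes kept were past 2-fold. At a limit of 1.5-fold, 9 of 32 were higher (28.1%), against 11.9% of all genes, and 4 were lower (12.5%), against 10.8%. A ratio beyond the SD between probes in either direction was found for 16 of the 32 (50%), against 34.8% of all genes. The 5 genes past 2-fold on the higher side include VLDLR, which passed the level filter only through its miR-210 reading, since its normalized ncRNA intensity of 36.5 lay under the filter at 37.5. The members were chosen with earlier results of these data known, so these shares describe the list and do not test it. On the deposited scale the calls over all genes shifted down, with 140 genes at least 2-fold higher and 318 lower (30.6% higher), in place of 202 and 213 (48.7% higher).

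**Figure D1:**
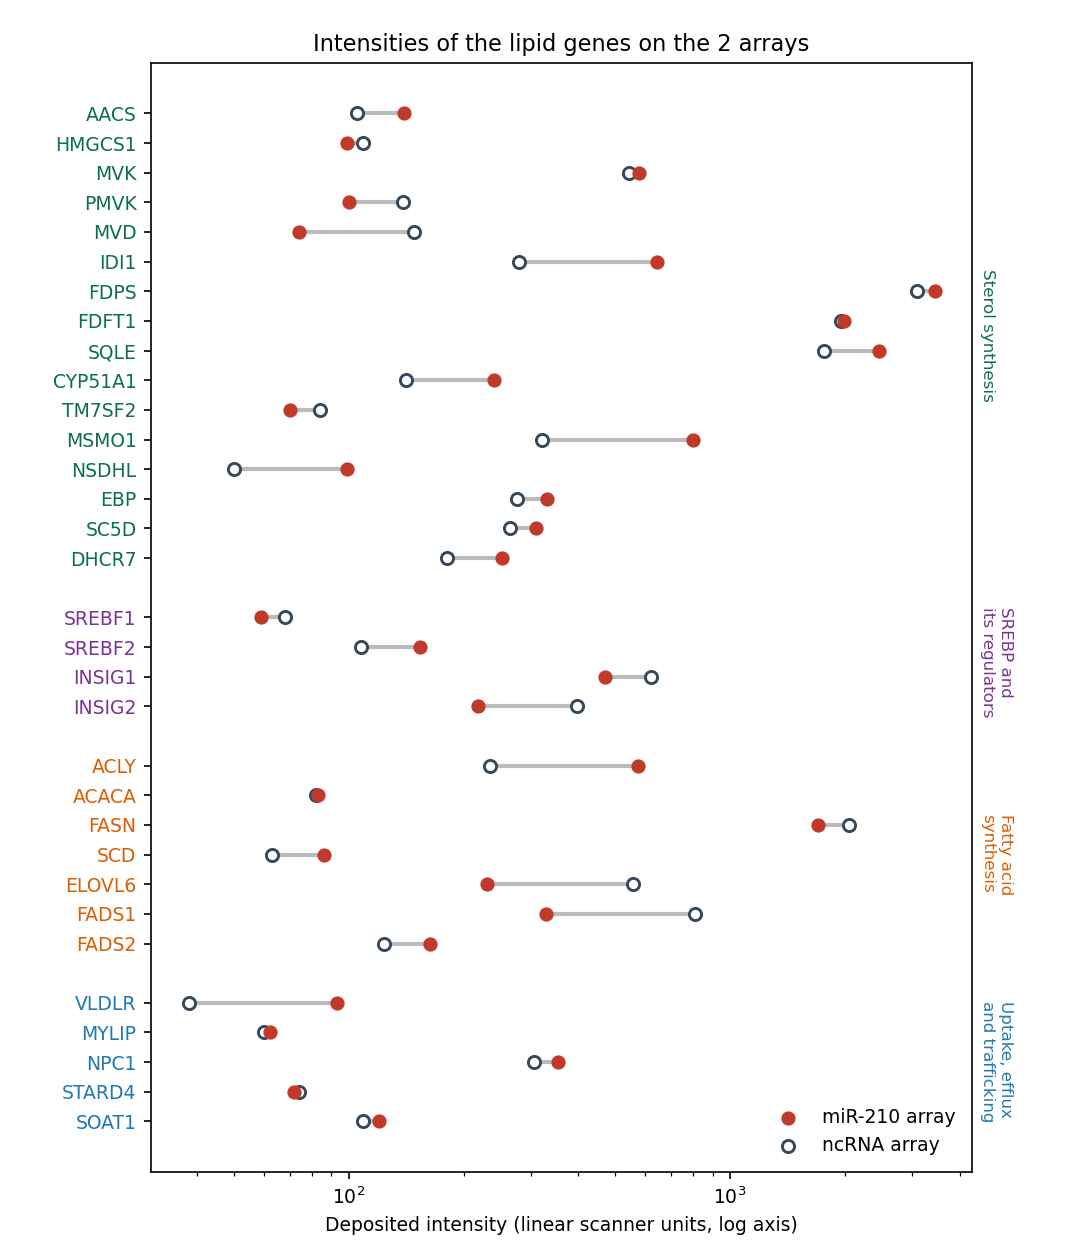
Deposited intensity (linear scanner units on a log axis) of each of the 32 genes kept, by role, with filled points for the miR-210 array and open points for the ncRNA array, 1 array each. The widest gaps with miR-210 on the right are those of MSMO1 (801 against 322), IDI1 (645 against 279), ACLY (573 against 234) and VLDLR (93 against 38), and the widest with miR-210 on the left are FADS1 (330 against 811) and ELOVL6 (230 against 555).

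Most sterol synthesis genes read higher with miR-210 than with ncRNA. Among the 16 kept, 12 were above 0, against 50.2% of all genes kept, and their median was 0.36. At least 1.5-fold higher were 6 genes (37.5%, against 11.9% of all genes), and 3 of them were past 2-fold (18.75%, against 3.02%). At least 1.5-fold lower was 1 gene, MVD (6.25%, against 10.8% of all genes). The 4 genes below 0 were HMGCS1, PMVK, MVD and TM7SF2.

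The route opens with the supply of acetoacetyl-CoA and the making of mevalonate. AACS, which activates acetoacetate, read 140 on the miR-210 array and 105 on the ncRNA array, a log2 ratio of 0.53. HMGCS1, the cytosolic HMG-CoA synthase and one of the best known SREBP targets, read 99 and 109, with a log2 ratio of -0.03. The gene at the entry to the mevalonate route was thus near 0, and AACS lay only just beyond the SD between probes.

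The kinases that phosphorylate mevalonate and the decarboxylase after them had ratios on both sides of 0. MVK, the mevalonate kinase, read 577 on the miR-210 array and 542 on the ncRNA array, a log2 ratio of 0.19. PMVK, the phosphomevalonate kinase, read 100 and 139, a log2 ratio of -0.37. Neither ratio exceeded the SD between probes. MVD, the decarboxylase that makes isopentenyl diphosphate, read 74 with miR-210 and 148 with ncRNA, a log2 ratio of -0.87 or 1.83-fold lower. It was the lowest sterol synthesis gene, at rank 317 from the lowest of all 6684 genes, and stood at 2-fold lower (-1.0) on the deposited scale.

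IDI1, the isomerase that acts just after MVD, differed in the other direction. It read 645 on the miR-210 array and 279 on the ncRNA array, a log2 ratio of 1.32 or 2.50-fold higher, at rank 82 from the highest. MVD and IDI1 are neighbouring steps, so adjacent enzymes of the route had opposite ratios, each from 1 probe. FDPS, which makes farnesyl diphosphate, read 3441 and 3090, a log2 ratio of 0.35.

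From squalene on the ratios were more uniform. Of 9 kept genes, 8 were above 0 (88.9%, against 50.2% of all genes kept), with a median of 0.60. Of the 7 genes up to farnesyl diphosphate 4 were above 0 (57.1%), with a median of 0.19. This split by step was made after the values were seen. FDFT1, the squalene synthase, read 1993 on the miR-210 array and 1958 on the ncRNA array (log2 ratio 0.20). SQLE, the squalene epoxidase and a rate-limiting enzyme of the route, read 2454 and 1768 (log2 ratio 0.65, 1.57-fold higher). LSS, the lanosterol synthase, was under the level filter at 17 and 20, values too dim for a ratio.

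The demethylation of lanosterol held MSMO1, the highest ratio of the list, and NSDHL and CYP51A1 were also above 0. MSMO1, the sterol methyl oxidase, read 801 with miR-210 and 322 with ncRNA, a log2 ratio of 1.45 or 2.73-fold higher. At rank 54 of 6684 from the highest it was the most distant of all 32 genes. NSDHL, the dehydrogenase that works with MSMO1 in removing methyl groups, read 99 and 50, a log2 ratio of 1.09 or 2.12-fold higher, at rank 156. NSDHL fell short of 2-fold on the deposited scale (0.99) and with an offset of 10 added to each intensity (0.95). CYP51A1, the lanosterol demethylase that precedes both, read 240 and 141, a log2 ratio of 0.87 or 1.82-fold higher. TM7SF2, a sterol reductase that stands between CYP51A1 and MSMO1 in the route, was below 0. It read 70 and 84 (-0.14), within the SD between probes, and its dimmer probe, under the level filter, read 24 and 29.

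The closing steps differed less. DHCR7, the reductase of the last step of cholesterol synthesis, read 253 with miR-210 and 181 with ncRNA, a log2 ratio of 0.60 or 1.51-fold higher. EBP, the sterol isomerase, read 332 and 277 (log2 ratio 0.37), and SC5D, the sterol desaturase, read 309 and 264 (0.34), both within the SD between probes.

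**Figure D2:**
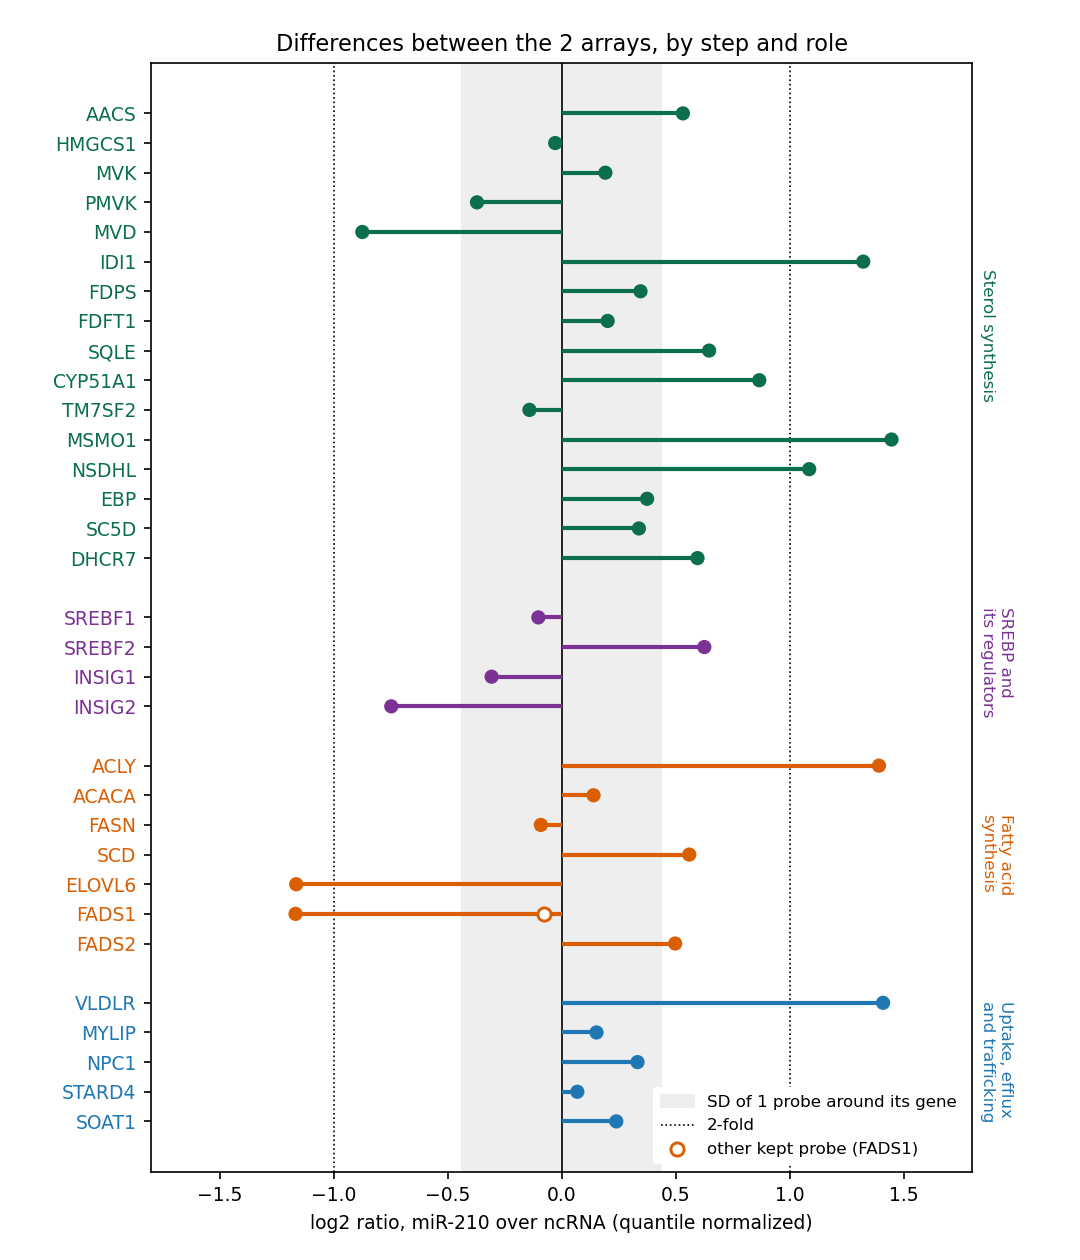
Log2 ratio of miR-210 over ncRNA (quantile normalized, 1 array each) for the 32 genes kept, with sterol synthesis in the order of the route from top to bottom, the grey band for the SD of 1 probe around its gene (0.44) and dotted lines at 2-fold. MVD at -0.87 and IDI1 at 1.32 are neighbours in the route, MSMO1 at 1.45 is the highest, and the open point is the other kept probe of FADS1 at -0.08.

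The SREBPs and the proteins that hold them back did not follow the enzymes as a group. Of 4 kept genes, 1 was above 0 (25%, against 50.2% of all genes kept) and 3 below, with a median of -0.205. SREBF2, which encodes the SREBP that chiefly drives sterol synthesis and whose window holds the TCACCCCAC shown above, read 154 on the miR-210 array and 108 on the ncRNA array. Its log2 ratio was 0.63 or 1.54-fold higher, at rank 696 from the highest. SREBF1, which encodes the SREBP isoforms tied mainly to fatty acid synthesis, read 59 and 68 (log2 ratio -0.10).

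Both INSIG genes were lower on the miR-210 array. INSIG2 read 218 with miR-210 and 396 with ncRNA, a log2 ratio of -0.75 or 1.68-fold lower, at rank 451 from the lowest. INSIG1, itself a known SREBP target, read 469 and 620, a log2 ratio of -0.31, within the SD between probes. The sign of INSIG1 was thus opposite to that of most sterol synthesis genes, and the ratio of INSIG2 alone lay beyond the SD.

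Fatty acid genes went both ways. Of 7 kept, 4 were above 0 (57.1%, against 50.2% of all genes kept) and 3 below, with a median of 0.14. At least 2-fold higher was 1 gene, ACLY (14.3%, against 3.02% of all genes), and at least 2-fold lower were 2, ELOVL6 and FADS1 (28.6%, against 3.19%). A ratio beyond the SD between probes was found for 5 of the 7 (71.4%, against 34.8% of all genes).

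ACLY, the ATP citrate lyase that supplies cytosolic acetyl-CoA to both fatty acid and sterol synthesis, read 573 with miR-210 and 234 with ncRNA. Its log2 ratio was 1.39, or 2.62-fold higher, at rank 65 from the highest. The enzymes that act next were near 0. ACACA, the acetyl-CoA carboxylase, read 83 on the miR-210 array and 82 on the ncRNA array (log2 ratio 0.14), with its dimmer probe, under the filter, at 16 and 15. FASN, the fatty acid synthase, read 1701 and 2045 (log2 ratio -0.09).

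Elongation and desaturation were split. ELOVL6, the elongase that extends palmitate, read 230 with miR-210 and 555 with ncRNA, a log2 ratio of -1.16 or 2.24-fold lower, at rank 146 from the lowest. SCD, the stearoyl-CoA desaturase, read 86 and 63, a log2 ratio of 0.56. FADS2, the desaturase that begins the synthesis of long polyunsaturated fatty acids, read 163 and 124 (0.50). SCD and FADS2 were thus above 0 and ELOVL6 well below it.

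FADS1, the desaturase that acts after FADS2, was the only gene of the 32 with a second kept probe, and its probes disagreed. The brighter read 330 with miR-210 and 811 with ncRNA, which is 2.24-fold lower (log2 ratio -1.17). The other read 302 and 346, a log2 ratio of -0.08. They differed by 1.09 on the log2 scale, a gap reached by 20 of the 251 genes with a second kept probe (7.97%). Averaged over both probes FADS1 stood at -0.62 and was not past 2-fold, which left ELOVL6 as the single gene past 2-fold on the lower side. A lower FADS1 therefore rests on 1 of its 2 probes.

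Of the other fatty acid genes, both were dim. ACSS2, the acetyl-CoA synthetase that makes acetyl-CoA from acetate, read 32 with miR-210 and 23 with ncRNA, under the level filter. LPIN1, a phosphatidate phosphatase, read 38 and 18 and was also under it.

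Of the uptake, efflux and trafficking genes, those kept lay on the positive side, but mostly by little, and no exporter was kept. All 5 kept genes were above 0, against 50.2% of all genes kept, with a median of 0.24. STARD4 turned to -0.04 on the deposited scale. Beyond the SD between probes was 1 gene of the 5 (20%, against 34.8% of all genes), VLDLR. The same gene was past 2-fold on the higher side (20%, against 3.02% of all genes). VLDLR, a receptor for triglyceride-rich lipoproteins that is also known to respond to hypoxia and to stress of the endoplasmic reticulum, read 93 on the miR-210 array and 38 on the ncRNA array. Its log2 ratio was 1.41 or 2.66-fold higher, at rank 60 from the highest. The ncRNA reading lay just under the median of its array and, after normalization, under the level filter, which makes the size of this ratio uncertain.

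The remaining kept genes of this group had small positive ratios. NPC1, which carries cholesterol out of lysosomes, read 353 with miR-210 and 306 with ncRNA (log2 ratio 0.33). SOAT1, which esterifies cholesterol for storage, read 120 and 109 (0.24). MYLIP, a ubiquitin ligase that marks lipoprotein receptors for breakdown and is a target of the sterol-activated LXR receptors, read 62 and 60 (0.15). STARD4, a sterol carrier and SREBP target, read 72 and 74 (0.07). None of these ratios exceeded the SD between probes.

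Both cholesterol exporters among the 41 genes were too dim to pass the level filter. ABCA1 read 21 with miR-210 and 9 with ncRNA, and ABCG1 read 26 and 9, all below the median of their array. Both are known LXR targets, as MYLIP is.

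**Figure D3:**
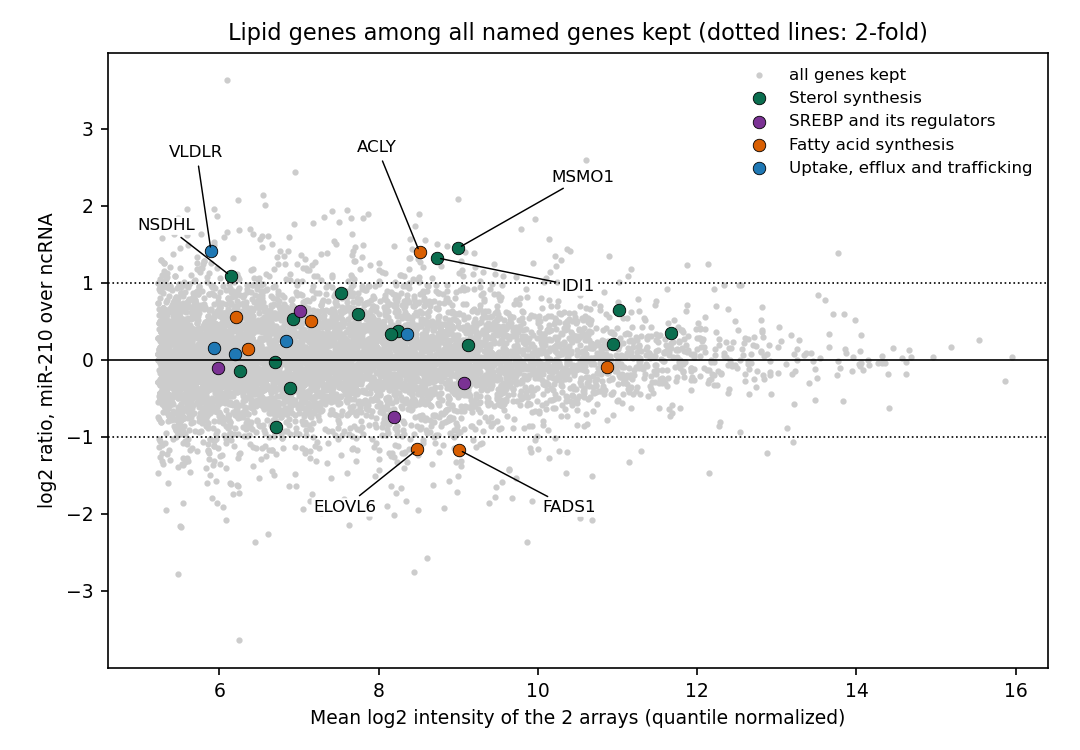
Log2 ratio of miR-210 over ncRNA against the mean log2 intensity of the 2 arrays (quantile normalized) for all 6684 genes kept, in grey, with the 32 lipid genes in colour and the 7 past 2-fold named. Those 7 lie among other genes of like intensity rather than apart from them, and more of the coloured points are above 0 (22) than below (10).

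A wider set of 66 pathway genes outside the 41, of which 56 were on the array and 35 kept, had fewer genes above 0 than below. There 14 genes were above 0 (40%, against 50.2% of all genes kept) and 20 below, with a median of -0.09, and ELOVL4 stood at 0.00. Past 2-fold was 1 of the 35, on the higher side (2.86%, against 3.02% of all genes). Further sterol genes, 9 kept, had a median of -0.09, with ERLIN1, an endoplasmic reticulum protein involved in the sterol-regulated turnover of proteins, highest at 0.84 (230 with miR-210 and 138 with ncRNA). RXRA, the nuclear receptor partner of LXR, was lowest of these at -0.39 (58 and 82).

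Further fatty acid genes, 14 kept, had a median of -0.08. MID1IP1, known to activate acetyl-CoA carboxylase, was lowest at -0.97 (121 with miR-210 and 254 with ncRNA), and the elongase ELOVL7 was highest at 0.72 (54 and 35). Further transport genes, 12 kept, had a median of 0.01. OSBPL9, an oxysterol-binding protein relative, was 2.19-fold higher (1584 and 812), and LRP8, a lipoprotein receptor of the same family as VLDLR, was lowest at -0.87 (72 and 142). The related receptors VLDLR and LRP8 thus had ratios of opposite sign.

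**Figure D4:**
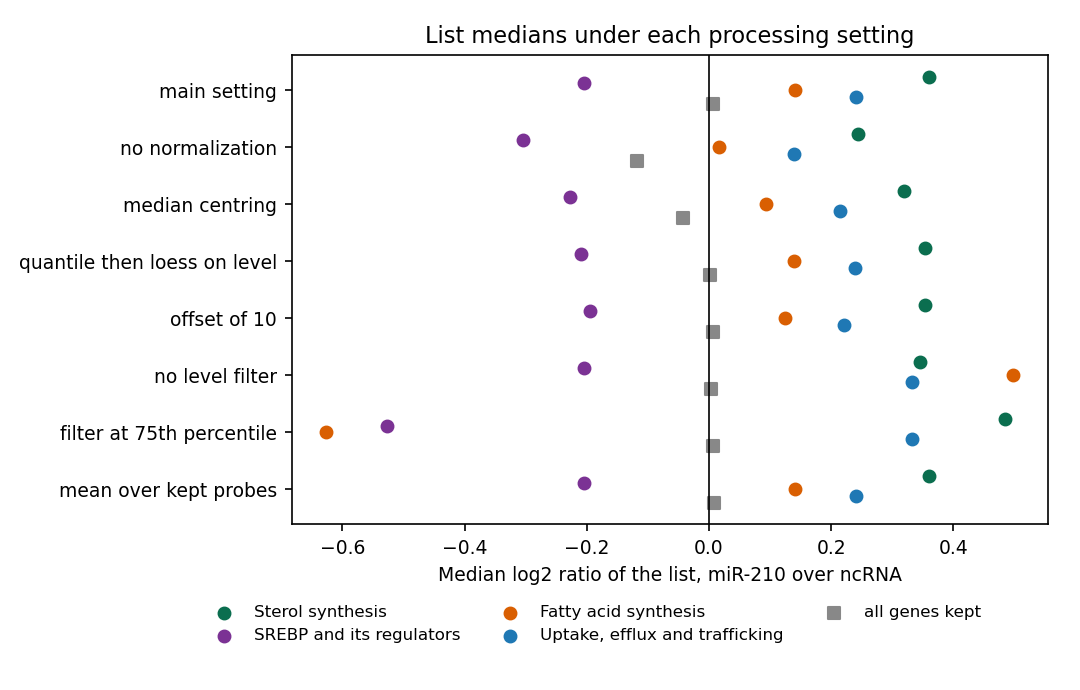
Median log2 ratio of miR-210 over ncRNA of each gene group under the main setting and 7 processing alternatives, with grey squares for all genes kept. The sterol synthesis median stays between 0.24 and 0.48, and the fatty acid median ranges from -0.63 to 0.50 with the level filter.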

How the data were processed

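KYSE-170 RNA was measured on 1 array after miR-210 and 1 after ncRNA transfection, and groups were taken from sample titles. The deposited intensity values are whole numbers on a linear scale. Some lie under 0, so a background was subtracted at some step before the values were deposited. Their scanner and their normalization were not given in the sources used here. No detection calls were used and no probe of these genes was saturated (above 65000).

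Values were taken to log2 for the 24177 probes above 0 on both arrays and quantile normalized (Python 3.11.15, numpy 2.4.6, pandas 2.3.3). The normalization and the log2 ratio were tested on simulated arrays with equal numbers of probes raised and lowered. The level filter and the choice of probe were not tested. Probes were kept if their mean log2 level reached the all-probe median, equal to an intensity of 37.5, and the brightest kept probe stood for its gene. Of 24267 probes, 13395 had 1 symbol in the platform annotation, and 10872 stay unnamed. Of 12474 symbols, 2285 were updated through RefSeq synonyms (GRCh38.p14) and 113 matched no current symbol. All member genes are named with their values, and of the wider lists the highest, the lowest and those past 2-fold.

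With 1 array per group there is no test, and the number of arrays limits the precision. Alternatives were no normalization, median centring, loess on level, an offset of 10, no level filter, a filter at the 75th percentile, and means over probes. Members and lists were chosen with earlier results of these data known.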

Additional observations from a re-analysis of the deposited data

Results flagged for a closer look

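Signals outside the comparisons came from 3 of these genes whose probes were under the level filter but differed by at least 2-fold. LPIN1 had a log2 ratio of 1.13, from intensities of 38 with miR-210 and 18 with ncRNA. ABCA1 had 1.26, from 21 and 9. ABCG1 had 1.56, from 26 and 9. LSS (-0.197) and ACSS2 (0.55), the other genes of the list under the filter, were not 2-fold apart. All of these ratios rest on dim readings, so their size is uncertain. With no level filter, 13.99% of 12405 genes were at least 2-fold apart, against 6.21% of genes past the filter. The 13.99% includes the genes past the filter, so the share among genes under it is higher and was not computed.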

How the results depend on the processing

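No paired analysis was possible because each group had 1 array. Nothing could be left out for the same reason. Over the 7 alternatives MSMO1, IDI1, ACLY, VLDLR and ELOVL6 were past 2-fold in the same direction wherever they passed the filter. Each of them has 1 probe, so both changes of filter and the means over probes could not alter these ratios. Loess moved no ratio of the 32 genes by more than 0.0075. Without normalization the median of all genes moved to -0.12, that of all 32 genes to 0.147 and that of sterol synthesis to 0.244. Relative to all genes the sterol median was then 0.36, against 0.35 in the main setting. The filter at the 75th percentile left 17 of the 32 genes. There the SREBP group, 2 genes, had a median of -0.527, the fatty acid genes, 4 left, -0.627, and the wider sterol list 0.274. It left 3 of these 17 genes past 2-fold on the higher side. Of all 3467 genes past that filter, 95 were higher and 97 lower (5.54% in either direction). With no filter the fatty acid median was 0.498 and the wider fatty acid median -0.197. At least 2-fold higher were then 8 of 37 of these genes. Of all 12405 genes, 874 were higher and 862 lower (13.99% in either direction). Both filters change which genes enter a list. With means over probes 1 gene in place of 2 was at least 2-fold lower. Median centring, loess and the offset moved no group median of these genes beyond the SD between probes divided by the root of the number of genes.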
